A study of Homo sapiens with 39 samples.

Results

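Interferon-stimulated genes were followed across 4 human B cell lymphoma cell lines given bromodomain inhibitors. The set held 41 genes, chosen by name from those commonly counted as interferon-stimulated, and each was matched through its Ensembl identifier to a row of the deposited raw count table. All 41 were present among 15808 genes. A filter on low counts left 13212 genes for testing, of which 40 belonged to the set. CMPK2, a mitochondrial nucleotide kinase, did not pass it, and its highest group mean was 2.69 CPM (counts scaled to a common library total) in DOHH2 with DMSO.

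Type I interferons bind a receptor at the cell surface, whose kinases JAK1 and TYK2 activate a transcription factor complex that contains IRF9. The complex binds the interferon-stimulated response element (ISRE), and the genes it switches on sense viral RNA, degrade it, block translation or trap virions. Many tumour lines express some of these genes with no interferon added, and that resting level is called interferon tone.

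DOHH2 and Toledo are lines of germinal centre origin, while OCILy10 and TMD8 are of the activated B cell type. Each was exposed for 6 h to the solvent DMSO, to NEO2734, which binds the bromodomains of the BET proteins and of CBP and EP300, or to OTX015, which binds those of the BET proteins. OCILy10 was also exposed to CB103, an inhibitor of the NOTCH transcription complex. Each of the 13 groups held 3 libraries, 39 in all, and no dose was given in the labels. The labels name no transgene or deletion in any group. Other text shared by all samples named further compounds and a longer exposure, so that each library was placed by its own label. Nothing in the labels says that replicates were separate cultures, and p-values then measure the spread between libraries only, which may be technical.

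The libraries fell into 15 deep ones, with 6670250 to 11668542 counts, and 24 shallow ones, with 1000281 to 3420458 counts. In 3 libraries genes restricted to another line were present. Such genes exceeded 10 CPM in every library of their line, while elsewhere their 90% quantile stayed below 1 CPM, and these 3 libraries were set aside in choosing them. The library labelled Toledo DMSO replicate 2 held the 10 genes of OCILy10 at a median of 74.1% of the level in OCILy10, and the 13 genes of Toledo at 41.3% of their own level. In replicate 2 of OCILy10 with CB103 the Toledo genes stood at 29.8%, and in replicate 3 of DOHH2 with NEO2734 those of OCILy10 stood at 11.5%. In the other 36 libraries no such share exceeded 2.29%. None of the interferon-stimulated genes was among these line-restricted genes. Toledo DMSO replicate 2 was left out of every value below unless it is named, which leaves 38 libraries and 2 DMSO libraries in Toledo. All 6 B cell markers were detected in each line. Of 6 T cell markers 3 were in the table, and their summed level ran from 5.27 to 119.7 CPM in OCILy10 (CD2, CD5 and TRAC), from 2.61 to 39.7 CPM in TMD8 and up to 2.12 CPM in the other lines. Of 6 monocyte markers 3 were in the table, with sums up to 6.08 CPM. Their part in the results was not tested.

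The promoters show what the set shares outside its expression. RefSeq promoter windows (GRCh38.p14, 250 bases before to 50 after a start site) were at hand for 34 of the 41 genes, in 47 windows. The ISRE core was searched as GAAANNGAAA on both strands, and a match on the reverse strand reads TTTCNNTTTC. It occurred in 26 of the 34 genes, against 4.38% of all 27305 symbols, and in 31 of their 47 windows, against 3.57% of all 35116 windows. The longer form GAAANNGAAACT, every match of which also holds the core, occurred in 15 of the 34 genes against 0.322% of all symbols, and in 18 of the 47 windows against 0.273%. The gamma-activated sequence motif TTCNNNGAA occurred in 11 genes against 9.38% of all symbols, and in 13 windows against 7.66%, and 6 of its 14 matches overlapped an ISRE core. The 10 stretches that follow come from the role groups described further on, other than the ISG15 system, and include LGALS3BP, which was not called with either compound on average. Each holds 30 bases read 5′ to 3′ on the gene's strand, and the capitals mark the ISRE core.
IFIT1, chr10:89392504-89392533, plus strand: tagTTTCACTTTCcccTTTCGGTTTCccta
IFIT3, chr10:89332468-89332497, plus strand: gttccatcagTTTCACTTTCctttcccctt
IFI44L, chr1:78620365-78620394, plus strand: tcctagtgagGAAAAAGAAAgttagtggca
OAS3, chr12:112938452-112938481, plus strand: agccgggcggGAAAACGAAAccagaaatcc
MX1, chr21:41420559-41420588, plus strand: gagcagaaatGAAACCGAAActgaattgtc
GBP1, chr1:89065316-89065345, minus strand: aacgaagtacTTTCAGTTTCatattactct
EIF2AK2, chr2:37156967-37156996, minus strand: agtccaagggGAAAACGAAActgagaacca
PARP14, chr3:122680800-122680829, plus strand: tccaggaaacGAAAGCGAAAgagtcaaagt
BST2, chr19:17405738-17405767, minus strand: tttctggGAAACTGAAACTGAAAacctaat
LGALS3BP, chr17:78979962-78979991, minus strand: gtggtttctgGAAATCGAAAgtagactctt

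The IFIT1 and BST2 stretches hold 2 matches each, and those of BST2 overlap. IFIT1, IFIT3 and GBP1 carry theirs on the reverse strand. The GENCODE 29 annotation places the whole stretch of OAS3, MX1, GBP1, EIF2AK2, PARP14 and LGALS3BP in an exon of the gene, and finds no exon base of the gene in those of IFIT1 and BST2. A match is a description of the letters and not evidence of binding.

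With DMSO alone the 4 lines differed widely in these genes. TMD8 had the highest mean for 23 of the 40 tested genes, DOHH2 for 8, OCILy10 for 8 and Toledo for 1, and Toledo had the lowest for 36. Over all 13212 tested genes TMD8 had the highest mean for 3039 and Toledo the lowest for 3577. The median gene stood at 67.4 CPM in TMD8, 52.0 CPM in DOHH2, 44.8 CPM in OCILy10 and 2.50 CPM in Toledo. Over all tested genes the medians lay between 21.0 and 21.8 CPM in the 4 lines. A test over the 4 lines called 37 of the 40 genes (edgeR quasi-likelihood F-test, adjusted p under 0.05), against 53.0% of all tested genes. The genes not called were ISG15, RSAD2 and EIF2AK2.

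**Figure D1:**
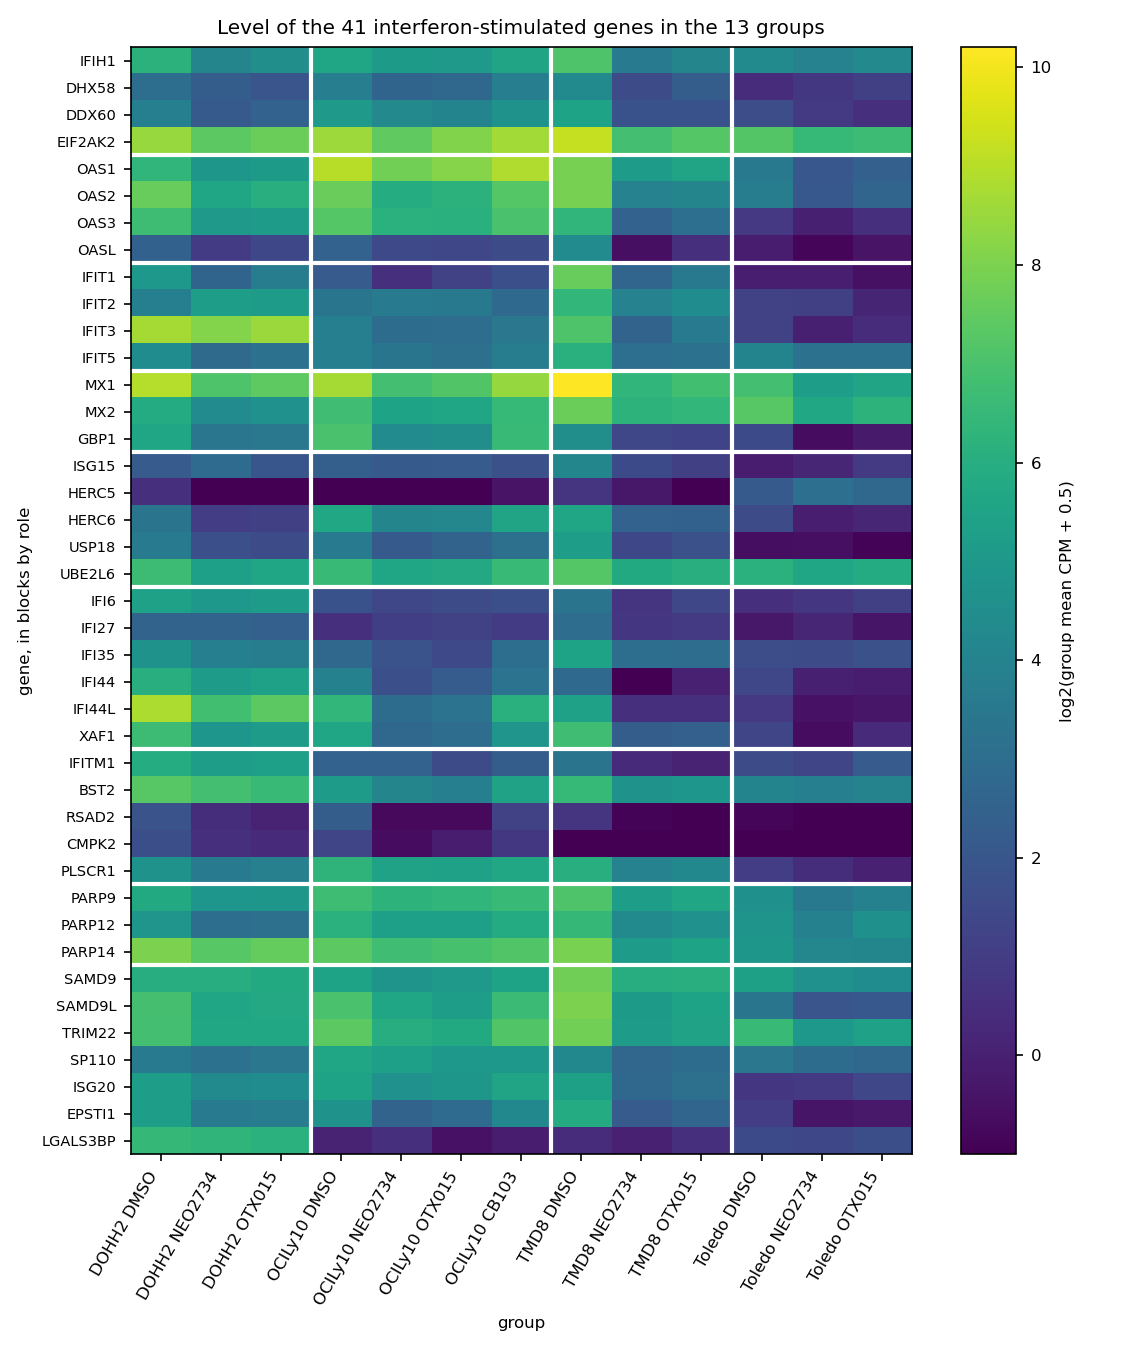
Level of the 41 genes (rows, in blocks by role) in the 13 groups (columns), as log2 of the group mean CPM plus 0.5. The Toledo columns are dark for most genes already with DMSO, while the TMD8 columns go from bright with DMSO (median 67.4 CPM) to dark with NEO2734 (5.88 CPM) and OTX015 (8.19 CPM).

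Against Toledo, 25 genes were called higher and 1 lower in DOHH2 (10.0% of all genes were called higher and 13.7% lower), 21 higher and 1 lower in OCILy10 (14.7% and 15.7%) and 32 higher and none lower in TMD8 (13.6% and 15.3%). The median differences on the log2 scale were 3.30, 2.38 and 3.57, against 0.00, 0.02 and -0.01 over all tested genes. Among the other 3 lines the calls went both ways. DOHH2 against OCILy10 gave 9 higher and 6 lower (14.2% and 16.9% of all genes), DOHH2 against TMD8 gave 6 higher and 11 lower (14.0% and 15.7%), and OCILy10 against TMD8 gave 2 higher and 10 lower (11.9% and 10.8%). Among these 3 lines more of the 40 genes were not called than called in each pair.

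The leading genes also differed by line when levels were taken per kilobase of exon. In DOHH2 with DMSO the highest were IFIT3 at 156 CPM per kb and BST2 at 139.7 CPM per kb. OCILy10 was led by OAS1 at 105 CPM per kb, TMD8 by MX1 at 137 CPM per kb and Toledo by UBE2L6 at 32.7 CPM per kb. A few genes went against the order of the whole set. LGALS3BP, a secreted glycoprotein that binds galectins, had 158, 55.4 and 51.6 CPM in the DOHH2 DMSO libraries and 0.213, 1.44 and 0 CPM in those of OCILy10. MX2, which blocks nuclear entry of retroviral genomes, had 189 and 128 CPM in Toledo and 20.6, 44.9 and 112 CPM in DOHH2. It was called lower in DOHH2 than in Toledo, by 1.45 on the log2 scale (SE 0.45, edgeR adjusted p = 0.0191).

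Both bromodomain inhibitors lowered most of the set. Averaged over the 4 lines, NEO2734 gave 34 of 40 genes lower and none higher (9.48% of all genes were called lower), and OTX015 gave 30 lower and none higher (4.68%). The median change was -1.50 with NEO2734 and -1.39 with OTX015 on the log2 scale, against 0.01 and 0.00 over all tested genes. The log2 change was below 0 for all 40 tested genes with either compound, but the sign of HERC5 is not defined by its counts. HERC5 had 0 counts in whole groups, and the SE of its average change was 3895 with NEO2734 and 5080 with OTX015. The 2 comparisons share their DMSO libraries. Toledo lay near the detection limit, with 13 of the 41 genes at 0 counts in DMSO replicate 3, and leaving out Toledo DMSO replicate 1 moved the counts to 16 and 14. Within the deep libraries alone the median NEO2734 change was -1.32, and within the shallow ones it was -1.46. The deep libraries hold 1 library in each group other than OCILy10 with DMSO and with NEO2734, which hold 2, so that their spread comes from OCILy10 alone and is assumed for the other lines. Among the shallow ones these 2 groups and Toledo with DMSO hold 1 library. Averaged over the other 3 lines, a comparison added after the data were seen, the counts were 35 with NEO2734 (7.92% of all genes) and 32 with OTX015 (3.38%), with medians of -1.74 and -1.67.

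The median change lay furthest below 0 in TMD8. There NEO2734 lowered 30 of 40 genes (1.88% of all genes were called lower) with a median log2 change of -2.95, and OTX015 lowered 21 (0.5%) with a median of -2.76. All 40 had a log2 change below 0, and the 3 treated libraries lay below the 3 DMSO libraries for 36 genes with either compound (10.4% and 7.74% of all genes). In DOHH2, NEO2734 lowered 9 genes (1.85%), with a median of -1.35, and the groups were apart and lower for 14 (9.54%). In OCILy10 it lowered 5 (0.886%), with a median of -1.05, and the groups were apart and lower for 23 (10.2%).

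**Figure D2:**
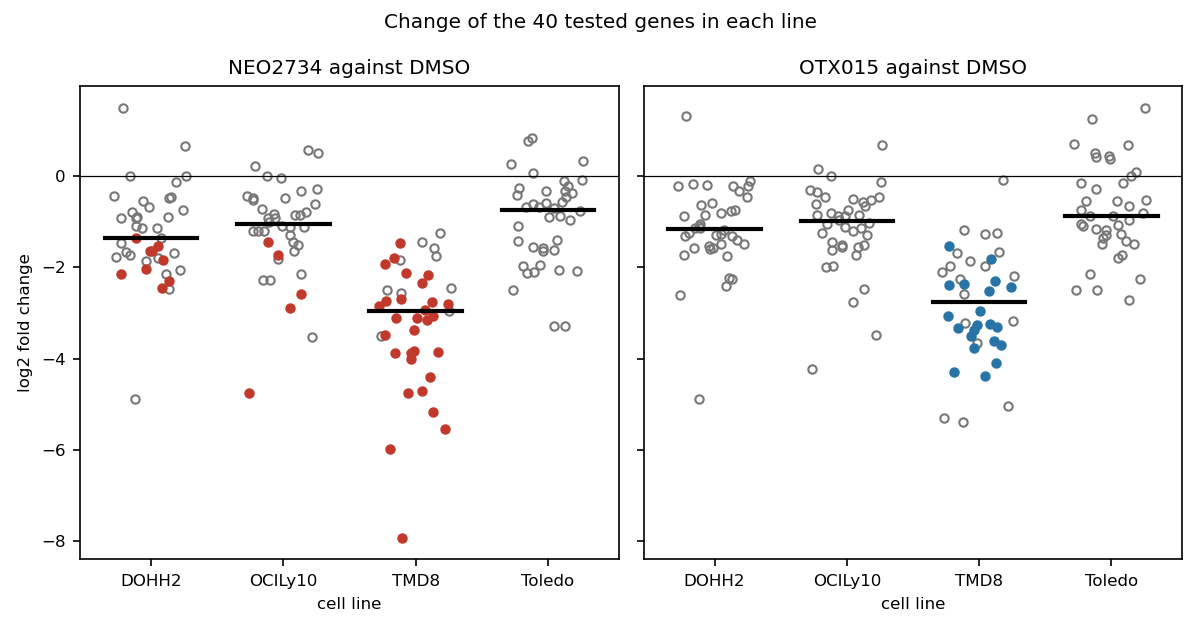
Log2 change of the 40 tested genes against DMSO (vertical axis) in each line (horizontal axis), for NEO2734 on the left and OTX015 on the right. Filled points passed the test, open points did not, and bars are medians, which lie at -2.95 and -2.76 in TMD8 and between -1.35 and -0.73 in the other lines.

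In the remaining comparisons edgeR called none of the 40. Those were NEO2734 in Toledo (0.378% of all genes called lower), with 12 genes at an unadjusted p under 0.05, and OTX015 in DOHH2 (0.114%), OCILy10 (0.0908%) and Toledo (0.00757%), with 19, 16 and 7 such genes. Over all 13212 genes 1285, 1115, 1133 and 1011 had an unadjusted p under 0.05 in the same order. DESeq2 called 2, 4, 3 and 0 of the 40 in the same order, and limma-voom 0, 0, 9 and 0. Shares of all genes called are not given here for DESeq2 and limma-voom. The medians were -0.73, -1.16, -0.99 and -0.88. The groups were apart and lower for 13 genes (12.0% of all genes), 12 (6.52%), 19 (7.04%) and 11 (10.7%) in that order. In DOHH2 and TMD8 libraries of the same number varied together, but so did the shallow replicates 2 and 3 across numbers. A block by replicate number is therefore not shown to be a true pairing. Replicate 1 was the deep library in each group of these lines, so that replicate number and depth are partly confounded there. With the replicate number as a block the counts were 18 for NEO2734 in DOHH2 (17 lower and 1 higher), 10 for OTX015 in DOHH2 and 33 for OTX015 in TMD8. Over all genes the block called 10.6%, 2.12% and 2.87% in either direction in these comparisons.

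Of 4 RNA sensors and effector kinases, which detect viral RNA or act on it directly, 4 were lower with NEO2734 and 3 with OTX015 on average over the lines. EIF2AK2 encodes PKR, the kinase that halts translation on binding double-stranded RNA. Its TMD8 libraries held 434, 555 and 782 CPM with DMSO, 93.9, 78 and 179 CPM with NEO2734 and 109, 87.1 and 254 CPM with OTX015. The groups did not overlap, and EIF2AK2 fell by 2.34 on the log2 scale with NEO2734 (SE 0.59, edgeR adjusted p = 0.0222), while its change with OTX015 in that line was -1.98 (adjusted p = 0.136) and -2.09 with the replicate block (adjusted p = 0.000147). The EIF2AK2 call with NEO2734 was lost without TMD8 DMSO replicate 3 or NEO2734 replicate 1 or 2 (adjusted p up to 0.141). IFIH1, the long-RNA sensor MDA5, had 18, 75.7 and 128 CPM in DOHH2 with DMSO and 7.39, 20.4 and 22.8 CPM with NEO2734. The treated libraries overlapped the lowest DMSO library, and the fall of 2.15 passed the test (edgeR adjusted p = 0.0292) but was lost in 5 of 38 fits without 1 library, each a DOHH2 library (adjusted p up to 0.258). Among those 5 was the mixed NEO2734 replicate 3. DHX58 and DDX60, a regulator and a cofactor of these sensors, both fell in TMD8 with NEO2734, by 3.11 and 3.87 on the log2 scale.

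The oligoadenylate synthetases make the short RNA chains that activate RNase L, which cuts RNA. With either compound 4 of 4 were lower on average over the lines, and 4 of 4 fell in TMD8. OAS2 was 1 of the 2 genes lowered by NEO2734 in 3 lines. OAS2 in TMD8 stood at 352, 136 and 237 CPM with DMSO, 20.3, 4.36 and 20.5 CPM with NEO2734 and 29.1, 6.42 and 14.7 CPM with OTX015. In DOHH2 it stood at 146, 132 and 309 CPM, 59.5, 30.4 and 51.4 CPM and 72.2, 40.6 and 79.8 CPM in the same order, and in OCILy10 at 178, 254 and 175 CPM, 58.2, 74.8 and 50.3 CPM and 65.3, 86.5 and 64.1 CPM. Every treated library lay below every DMSO library of its line, also in Toledo, where the DMSO libraries held 15.9 and 9.19 CPM and the NEO2734 libraries 2.34, 2.25 and 6.6 CPM. The NEO2734 changes were -4.00 in TMD8, -2.04 in DOHH2, -1.73 in OCILy10 and -1.63 in Toledo on the log2 scale (edgeR adjusted p = 4.43e-05, 0.0127, 0.0488 and 0.254). Leaving out each of the 38 libraries in turn, the OAS2 call was lost 29 times in OCILy10 (adjusted p up to 0.2), 3 times in DOHH2 and 0 times in TMD8. The losses in DOHH2 included the fit without NEO2734 replicate 3, which held OCILy10-restricted genes. OAS1 had its highest level in OCILy10, where the DMSO libraries held 460.2, 455 and 642 CPM and the NEO2734 libraries 184, 199 and 300.0 CPM. These groups did not overlap, but the change of -1.19 did not pass the test there (adjusted p = 0.228), whereas OAS1 fell by 2.74 in TMD8 (adjusted p = 0.00172). An annotated antisense gene overlaps OAS1, OAS2 and OAS3 on the other strand, and since the strandedness of the counts is not given in the sources used here, their reads cannot be told apart. Reads shared between paralogs of the OAS, IFIT and IFITM families may also have been split or dropped by the counting, and those values are uncertain to that extent.

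The IFIT proteins bind viral RNA ends and block translation. With either compound 3 of 4 were lower on average, and the exception was IFIT2. Without Toledo DMSO replicate 1 the average OTX015 change of IFIT3 was 0.137 and was not called. The Toledo DMSO library then left held 0 IFIT3 counts, so that the Toledo part of this average is not defined by the counts. Averaged over the other 3 lines the OTX015 change of IFIT3 was -1.55 (edgeR adjusted p = 0.00304). The IFIT3 level differed widely between lines. The DMSO libraries held 212, 383 and 643 CPM in DOHH2, 199, 76.4 and 140.1 CPM in TMD8 and 11.4, 18.5 and 12 CPM in OCILy10. With NEO2734 the values were 194, 314 and 337 CPM in DOHH2 and 5.66, 1.31 and 9.1 CPM in TMD8. The DOHH2 groups overlapped, with a log2 change of -0.55 (95% interval -1.61 to 0.51) and an adjusted p of 0.354 with the replicate block, while IFIT3 fell by 4.76 in TMD8 (SE 0.64, edgeR adjusted p = 8.47e-05). Of the set, IFIT3 had the lowest p in the test of whether the NEO2734 change differed between the lines (unadjusted p = 7.9e-05), but its adjusted p was 0.217. IFIT2, singled out after its values were seen, had 6.81, 13.5 and 21.3 CPM in DOHH2 with DMSO and 14.7, 39 and 62 CPM with NEO2734, and in TMD8 81.6, 66 and 105 CPM and 13.6, 4.36 and 28.1 CPM. The DOHH2 change was 1.50 (edgeR adjusted p = 0.293, and 0.0302 with the replicate block) and the TMD8 change -2.49 (adjusted p = 0.0598, and 0.000139 with the block). LIPA overlaps IFIT1, IFIT2 and IFIT3 on the other strand, and its change was 0.18 in DOHH2 and 0.21 in TMD8 with NEO2734 (adjusted p = 0.96 and 1.0).

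The interferon-induced GTPases assemble on viral or vacuolar surfaces, and 3 of 3 were lower on average with either compound. MX1 had the highest CPM of the set in TMD8 with DMSO, and EIF2AK2 with either compound. Its libraries held 947, 641 and 1954 CPM with DMSO, 59.9, 22.6 and 162 CPM with NEO2734 and 108, 27.8 and 202 CPM with OTX015. MX1 fell by 3.88 and 3.38 on the log2 scale (edgeR adjusted p = 0.00222 and 0.0171), with no overlap between treated and DMSO libraries. The OTX015 call of MX1 was lost without TMD8 DMSO replicate 3 or OTX015 replicate 1 or 2 (adjusted p up to 0.126). In DOHH2 the MX1 values spread widely with DMSO, at 164, 360.5 and 979 CPM, and the NEO2734 libraries held 109, 122 and 186 CPM. The groups overlapped, while each treated library lay below the DMSO library of its number, and the MX1 change was -1.85 (adjusted p = 0.118) and -1.54 with the replicate block (adjusted p = 0.00261). GBP1, which coats intracellular bacteria and vacuoles, was the other gene lowered by NEO2734 in 3 lines. It stood highest in OCILy10, with 104, 146 and 128 CPM with DMSO, 19.3, 27.8 and 15.8 CPM with NEO2734 and 19, 31.6 and 18.2 CPM with OTX015. The GBP1 changes with NEO2734 were -2.58 in OCILy10, -2.30 in DOHH2 and -3.06 in TMD8 (edgeR adjusted p = 0.0286, 0.0399 and 0.00971). These GBP1 calls were lost in 6, 8 and 1 of 38 fits without 1 library. In DOHH2 the losses included the fit without the mixed NEO2734 replicate 3. The GBP1 values with either compound lay below DMSO in every line.

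**Figure D3:**
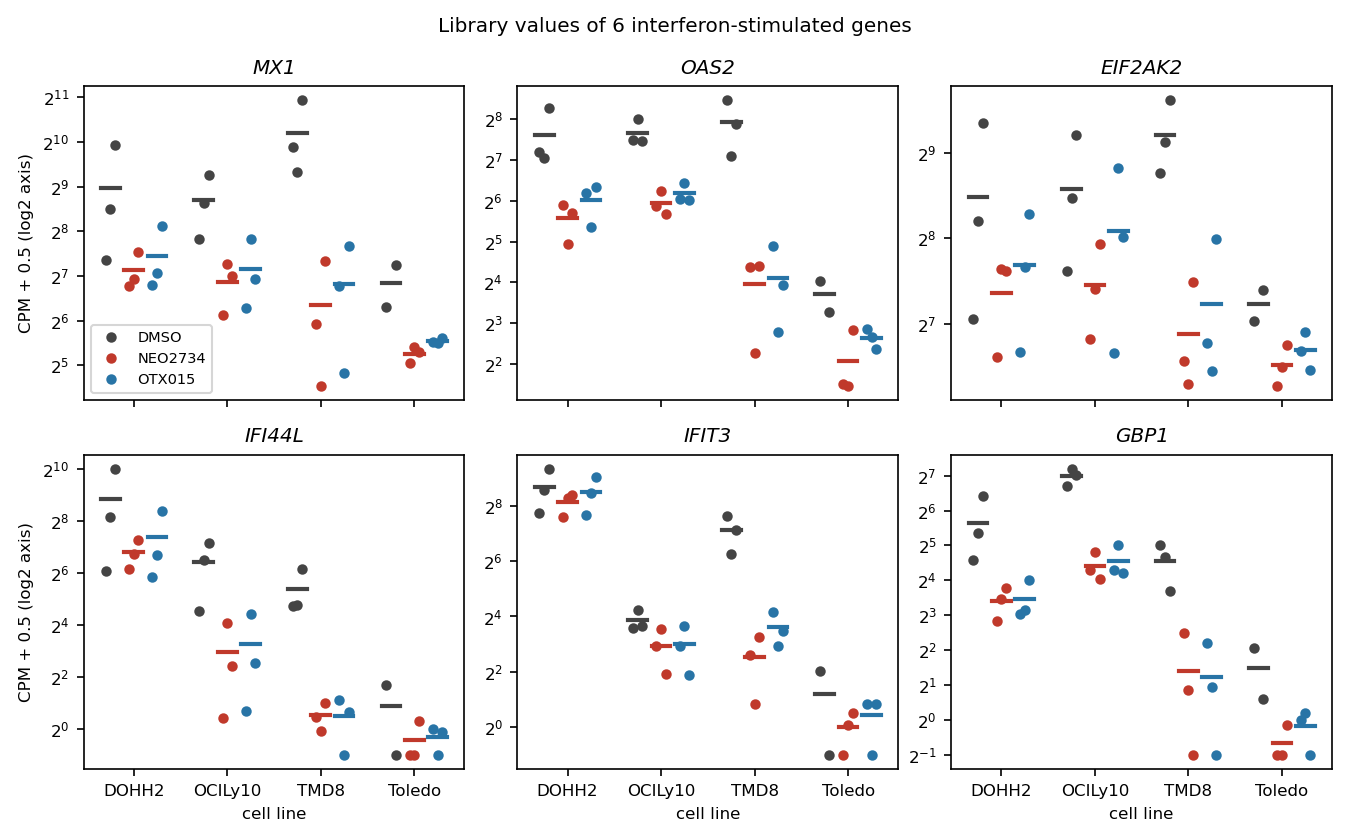
CPM plus 0.5 on a log2 axis for 6 genes in each library, by line and compound, with bars at the group means. The treated libraries of TMD8 lie below its DMSO libraries in all 6 panels, whereas those of DOHH2 overlap DMSO for MX1, EIF2AK2, IFI44L and IFIT3. For IFIT3 the DOHH2 DMSO libraries run from 212 to 643 CPM.

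ISG15 is a ubiquitin-like modifier, attached by UBE2L6 and the HERC ligases and removed by USP18. Of the 5 genes of this system 3 were lower on average with either compound, namely UBE2L6, HERC6 and USP18. UBE2L6 had group means of 152 CPM in TMD8, 102 CPM in DOHH2, 92.7 CPM in OCILy10 and 71.8 CPM in Toledo with DMSO. It fell by 1.08 on average with NEO2734 (edgeR adjusted p = 7.6e-06), and all NEO2734 libraries lay below DMSO in each of the 4 lines. ISG15 itself was low and uneven, at 24.7, 2.2 and 23.9 CPM in TMD8 with DMSO and 1.7, 11.8 and 0.998 CPM in OCILy10, and its average change of -0.66 had a 95% interval of -2.31 to 0.99. HERC5 was the only gene with its highest DMSO mean in Toledo, at 7.1 and 1.02 CPM, against 6.55, 8.98 and 8.25 CPM with NEO2734. In OCILy10 it had 0 counts in the DMSO, NEO2734 and OTX015 libraries.

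Of the IFI genes and XAF1, a pro-apoptotic partner of XIAP, 4 of 6 were lower on average with NEO2734 and 3 with OTX015. IFI44L and IFI44 lie side by side on chromosome 1. IFI44L had 66.5, 284 and 1032 CPM in DOHH2 with DMSO, 23, 91.4 and 142 CPM in OCILy10 and 26.4, 26.9 and 71.7 CPM in TMD8. With NEO2734 these were 71.1, 105 and 156 CPM, 0.844, 16.2 and 4.87 CPM and 0.854, 0.435 and 1.52 CPM. The TMD8 and OCILy10 groups did not overlap and those of DOHH2 did, and the spread among the DMSO libraries was wide in each line. IFI44L fell by 5.55 in TMD8 (SE 1.35, edgeR adjusted p = 0.0183), and its changes of -3.52 in OCILy10 and -2.06 in DOHH2 did not pass (adjusted p = 0.0778 and 0.273). The IFI44L call in TMD8 was lost without DMSO replicate 3 or any 1 NEO2734 library (adjusted p up to 0.117). IFI44, singled out after its values were seen, had 6.58, 2.75 and 10.5 CPM in TMD8 with DMSO and 0 counts in all 3 NEO2734 libraries. Against a floor of 3 counts over the group it was at least 28.9-fold lower. XAF1 in OCILy10 went from 27.1, 60.5 and 53.9 CPM to 3.09, 11.3 and 4.46 CPM with NEO2734, a fall of 2.89 (adjusted p = 0.0362) that was lost in 5 of 38 fits without 1 library. IFI27 and IFI35 were not called on average, with changes of -0.40 and -1.10.

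Among the membrane and metabolic restriction factors, 4 of 4 tested were lower on average with NEO2734 and 3 with OTX015. BST2, which tethers budding virions, had 153, 195 and 121 CPM in DOHH2 with DMSO and 146, 51.4 and 144 CPM with NEO2734, and these overlapped. In TMD8 its values were 72.1, 30.2 and 169 CPM and 20.2, 38.3 and 22 CPM, which also overlapped. BST2 fell by 0.88 on average (SE 0.28, edgeR adjusted p = 0.0273) and passed in no single line. RSAD2, the antiviral enzyme viperin, was near the detection limit, with 2.45, 4.89 and 5.99 CPM in OCILy10 with DMSO and 0.188, 0.145 and 0 CPM with NEO2734. These are 69 and 3 counts, a ratio of 0.0398 with an exact counting interval of 0.00802 to 0.121. In Toledo RSAD2 had 1 count with DMSO and 0 with either compound. In TMD8 it had 10 counts with DMSO, 1 with NEO2734 and 0 with OTX015. The size of its average falls over the lines is therefore not defined by the counts.

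The PARP genes encode ADP-ribosyltransferases, and 3 of 3 were lower on average and in TMD8 with either compound. PARP14 fell by 2.79 with NEO2734 in TMD8, from 247, 167 and 319.9 CPM to 41.1, 29.2 and 34.9 CPM (edgeR adjusted p = 0.000206). In DOHH2 its change was -0.73 (95% interval -1.54 to 0.07). PARP9 overlaps its binding partner DTX3L on the other strand, and DTX3L also fell, by 1.12 on average with NEO2734 (adjusted p = 7.73e-06). Of the 7 other restriction and effector genes 6 were lower on average with NEO2734 and 5 with OTX015. TRIM22, a ubiquitin ligase, was the most abundant of them and was lowered by NEO2734 in OCILy10 (-1.44, adjusted p = 0.0493) and TMD8 (-2.69, adjusted p = 0.000211). The TRIM22 call in OCILy10 was lost in 31 of 38 fits that left out 1 library (adjusted p up to 0.234), and that in TMD8 in 0. In Toledo TRIM22 held 110.2 and 75.5 CPM with DMSO and 22.5, 16.9 and 53.8 CPM with NEO2734. These did not overlap, and the change of -1.55 had an adjusted p of 0.0924. The gene not called was LGALS3BP, with 157, 18.6 and 66.2 CPM in DOHH2 with NEO2734 and an average change of -0.30 (95% interval -1.42 to 0.82).

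The order of the lines changed with treatment. With NEO2734 the median gene stood at 24.4 CPM in DOHH2, 16.5 CPM in OCILy10, 5.88 CPM in TMD8 and 1.85 CPM in Toledo, and with OTX015 at 27.2, 15.0, 8.19 and 2.39 CPM. TMD8 had the highest mean for 4 of 40 genes with NEO2734 and for 3 with OTX015, against 23 with DMSO. Over all 13212 tested genes the counts for TMD8 were 3076, 3026 and 3039 in the same order. The log2 change was lowest in TMD8 for 36 genes with NEO2734 and 39 with OTX015. The range between the 4 lines was narrower than with DMSO for 28 and 30 genes, and its median went from 4.17 to 3.04 and 3.49 on the log2 scale, against 1.41, 1.32 and 1.29 over all tested genes. Shares of all genes with the lowest change in TMD8 or a narrower range are not given here. Without Toledo the median range was 1.77 with DMSO, 1.92 with NEO2734 and 1.79 with OTX015 on the same scale. Whether the change differed between lines was tested directly. For NEO2734 edgeR called 0 of the 40 genes (0.0% of all genes), with 16 at an unadjusted p under 0.05 against 549 of all 13212 genes, and limma-voom called 1. For OTX015 edgeR called 0 (0.0%), with 14 at an unadjusted p under 0.05 against 279 of all genes, and limma-voom called 0. With the replicate number as a block, 13 and 3 were called, against 0.681% and 0.0908% of all genes.

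**Figure D4:**
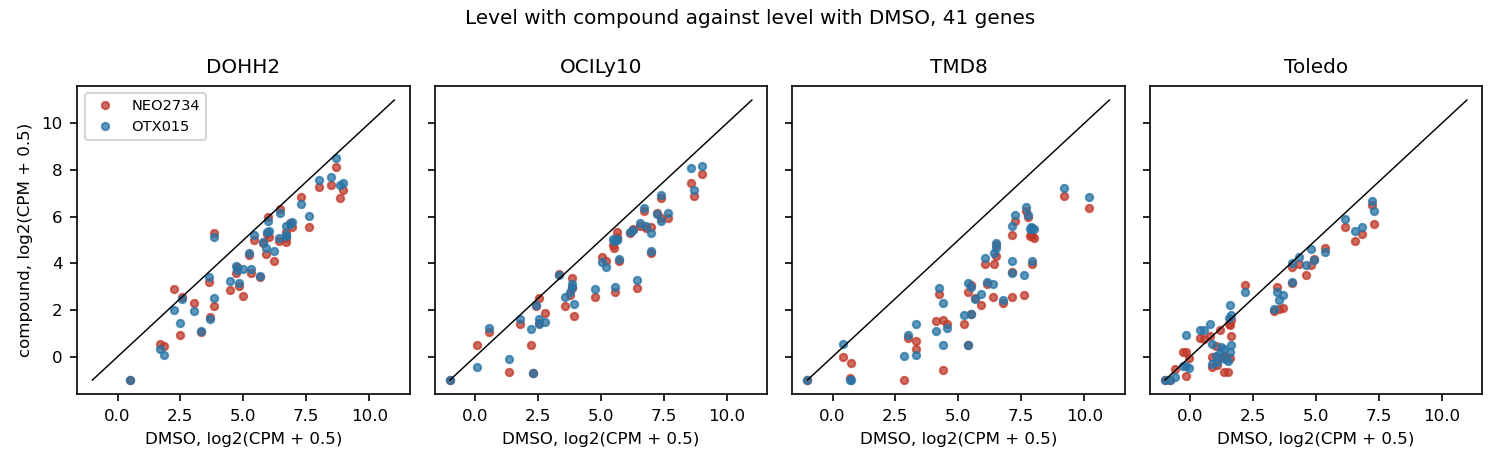
Level of the 41 genes with NEO2734 (red) or OTX015 (blue) on the vertical axis against the level with DMSO on the horizontal axis, in log2 of CPM plus 0.5, with 1 panel per line and the line of equality. The TMD8 points lie farthest below equality, and the Toledo points crowd near the lower left, with a DMSO median of 2.50 CPM.

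The Toledo values depended on the library left out. With Toledo DMSO replicate 2 included, NEO2734 in Toledo gave 17 genes lower in place of 0, with a median of -2.09, and OTX015 gave 13 in place of 0, with a median of -1.87. The share of all genes called in that fit is not given here, so that these counts are not read as particular to the set. The DMSO differences from Toledo then shrank, from 3.30 to 1.37 for DOHH2 and from 3.57 to 1.90 for TMD8. The count for NEO2734 also went from 9 to 5 in DOHH2 and from 5 to 0 in OCILy10, and that for OTX015 from 21 to 10 in TMD8. Without the other 2 mixed libraries as well, the counts for NEO2734 were 2 in DOHH2 and 2 in OCILy10.

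**Figure D5:**
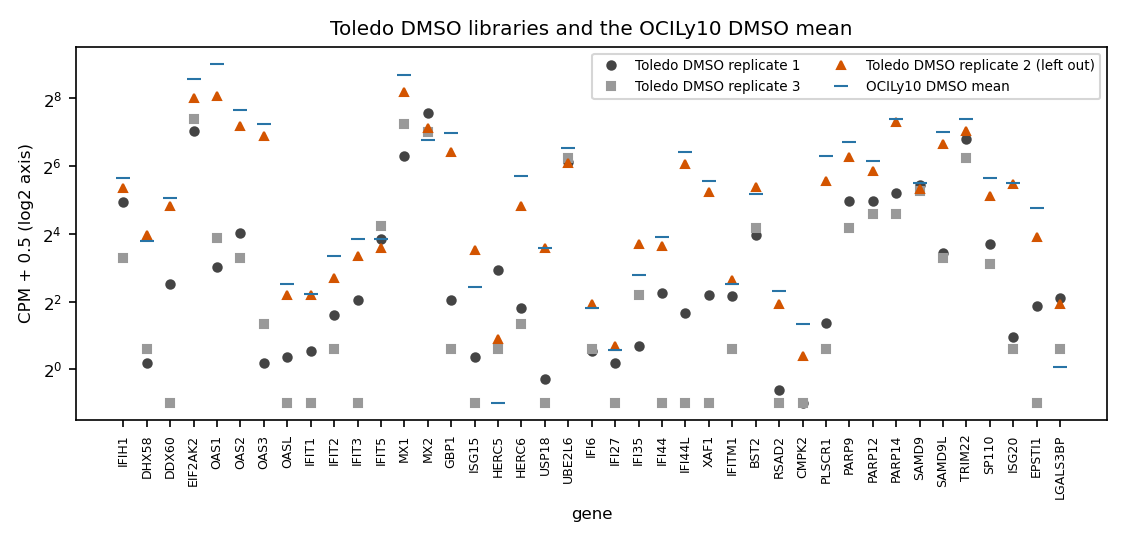
CPM plus 0.5 on a log2 axis for the 41 genes in the 3 Toledo DMSO libraries, with the OCILy10 DMSO mean. Replicate 2 lies above both other Toledo libraries for 35 of the 41 genes, with a summed level of 2432 CPM against 883 and 802 CPM.

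NEO2734 and OTX015 could not be compared at known matched doses. Averaged over the 4 lines, edgeR called 0 of the 40 genes (0.0378% of all genes called lower), with 1 at an unadjusted p under 0.05, and DESeq2 and limma-voom called 0. The median difference was -0.21 on the log2 scale, and 31 of 40 were below 0. For MX1 the difference was -0.35 (95% interval -1.02 to 0.32), for OAS2 -0.34 (-0.84 to 0.16) and for GBP1 -0.12 (-0.94 to 0.70). These intervals do not show that the compounds act alike. CB103 in OCILy10 gave 0 called genes by edgeR (0.0% of all genes), with 0 at an unadjusted p under 0.05, and 0 by DESeq2 and limma-voom. The median change was -0.26, and the groups were apart and lower for 5 genes (1.29% of all genes). Replicate 2 with CB103 held Toledo-restricted genes at 29.8% of their level in Toledo. With DMSO, Toledo had the lowest mean for 36 of the 40 genes. The part of this mixing in the CB103 values was not tested. GBP1 held 81.8, 85.8 and 122 CPM with CB103, which overlapped the DMSO libraries and lay above all NEO2734 libraries.

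Genes of the pathway above these were called in both directions. Over all 13212 tested genes NEO2734 called 2477 on average, 1252 of them lower, and OTX015 called 1273, 618 of them lower. Counts of 1 or 2 in lists this short are not read as a result. None of the 10 interferon genes listed was in the table. Of 9 receptors and kinases, NEO2734 gave 1 lower (IFNLR1) and 2 higher (IFNGR1 and JAK1), and OTX015 also gave IFNGR1 and JAK1 higher. Among the interferon regulatory factors IRF1, IRF2, IRF4 and IRF5 were lower with NEO2734, and IRF2 and IRF5 also with OTX015. IRF2, a repressor of ISRE-driven genes, fell by 1.24 on average with NEO2734 (edgeR adjusted p = 1.92e-09). Of 8 tested genes of nucleic acid sensing, 5 were lower with NEO2734 (DDX58, IKBKE, TLR7, MYD88 and TRIM25) and 4 with OTX015. Of 6 feedback inhibitors, 1 was lower (PTPN6) and 1 higher (PIAS1) with NEO2734, and OTX015 called none, at 0 of 6 by edgeR. Of the 6 B cell markers 4 were lower with NEO2734 and 3 with OTX015. Of 3 tested T cell markers TRAC was lower on average with both compounds, with log2 changes of -1.70 and -3.40. With DMSO, TRAC reached 1 CPM in OCILy10 only, so that the size of these averages is uncertain. Without Toledo, edgeR called 0 of the 3 with NEO2734 and 1 with OTX015. The part of these markers in the results was not tested.

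Genes with and without an ISRE core in the promoter window are set side by side here, with no test of the difference. The median NEO2734 change was -1.45 for the 26 tested genes with a match, with 22 lower, and -1.71 for the 7 tested genes without one, with 6 lower. For OTX015 the medians were -1.33 and -1.40, with 19 and 6 lower.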

How the data were processed

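The authors deposited whole-number read counts per Ensembl gene in 2 tables. Per the submitters' processing notes, STAR, edgeR and hg38 were used, while for the counting tool, the annotation and the strandedness the sources used here give nothing. Of the 39 columns 38 were equal in both tables, so that the second also holds raw counts, and the first was used. Libraries were prepared with a TruSeq RNA kit, per the labels' protocols. The differing column was OCILy10 CB103 replicate 1, with 11430777 counts in the table used and 5474462 in the other.

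Counts were filtered with filterByExpr, scaled by TMM and fitted in 1 quasi-likelihood model over 38 libraries and 13 groups (edgeR 4.0.16, limma 3.58.1, R 4.3.3), with p-values adjusted by Benjamini-Hochberg over 13212 genes and called under 0.05. The SE is the log2 change divided by the square root of F. CPM values are TMM-scaled. DESeq2 1.42.0 and limma-voom were alternatives, and the model was tested on simulated data. There, NEO2734 falls to 0.25 of the level were recovered at 36% in DOHH2, 44% in OCILy10, 40% in TMD8 and 34% in Toledo. Falls to 0.5 of the level were recovered at 2%, 14%, 10% and 0% in the same order. For the mean of the 4 lines the shares were 66% and 44%. A count of 0 called genes within a line therefore does not show that nothing changed. The 41 genes and all lists were chosen with earlier results of these data known. Genes named are the most abundant of each role and those lowered by NEO2734 in 3 or more lines, and every other gene named with values was chosen after its values were seen. Part of the list of transcription factors above these genes is not reported here.

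Same-numbered libraries deviated together in DOHH2 (9 of 9 correlations over 0.1, the lowest 0.257) and TMD8 (9 of 9, the lowest 0.318), but not throughout OCILy10 (13 of 18) or Toledo (3 of 7). Pairs of different numbers exceeded 0.1 in 6 of 18 cases in DOHH2, 6 of 18 in TMD8, 12 of 36 in OCILy10 and 8 of 14 in Toledo. In DOHH2 and TMD8 each of these pairs joined a replicate 2 and a replicate 3, both shallow. The block is therefore not shown to be a true pairing, and depth may enter it. Counting intervals and floors cover counting error only.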

Additional observations from a re-analysis of the deposited data

Results flagged for a closer look

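The library labelled Toledo DMSO replicate 2 entered only the comparisons that name it. Its 41 interferon-stimulated genes summed to 2432 CPM, above the 883 and 802 CPM of the other Toledo DMSO libraries and below the mean of 3300 CPM in OCILy10 with DMSO. It exceeded both other Toledo DMSO libraries for 35 of the 41 genes. GBP1 stood at 85.2 CPM there, against 3.63 and 1.02 CPM in the other libraries of its group.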

How the results depend on the processing

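Counts of the 40 genes called by edgeR are given here under each alternative where they moved by over 1.5 times. The share of all genes called is not given for these alternatives. The counts therefore show how the calls depend on the setting, and not a change particular to the set. For NEO2734 averaged over the 4 lines the 34 calls became 16 in the shallow libraries alone, and for OTX015 the 30 became 6 in the deep and 13 in the shallow libraries. For NEO2734 in DOHH2 the 9 calls became 5 with all 39 libraries, 2 without the 3 mixed libraries, 5 with no filter, 16 with a depth term, 0 in the deep libraries and 4 by limma-voom. In OCILy10 the 5 calls became 0, 2, 2 and 14 for the first 4 of these settings, 0 in the shallow libraries, 11 by limma-voom and 9 by DESeq2. In TMD8 the 30 became 0 in the deep libraries. In Toledo the 0 became 17 with all 39 libraries, 2 with a depth term and 2 by DESeq2. For OTX015 the 0 calls in DOHH2 became 6 with a depth term and 4 by DESeq2, the 0 in OCILy10 became 7 with a depth term, 9 by limma-voom and 3 by DESeq2, the 21 in TMD8 became 10 with all 39 libraries, 0 in the deep and 12 in the shallow libraries, and the 0 in Toledo became 13 with all 39 libraries. The test of different NEO2734 changes between lines went from 0 to 1 with a depth term and to 1 by limma-voom. The mean over 3 lines without Toledo was chosen after seeing the data. The deep libraries set 1 library against 1 in every line but OCILy10, and the shallow ones do so in OCILy10, with the lone samples assumed to vary like the other groups, so that these counts do not test the line's result. The causes were not tested, and DESeq2 was not run for the tests over 4 lines.

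With the replicate number as a block the counts for NEO2734 were 18 in DOHH2, 20 in OCILy10 and 3 in Toledo, and for OTX015 10 in DOHH2, 12 in OCILy10 and 33 in TMD8. For OCILy10 and Toledo the share of all genes called under the block is not given here, so that their counts are not read as particular to the set. The tests of different changes between lines gave 13 for NEO2734 and 3 for OTX015 under the block, which moved no other count by over 1.5 times.

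Leaving out each library in turn gave 16 to 35 calls for the NEO2734 mean and 14 to 31 for the OTX015 mean, both lowest without Toledo DMSO replicate 1. For NEO2734 the ranges were 0 to 10 in DOHH2 (0 without DMSO replicate 3 or NEO2734 replicate 2), 0 to 5 in OCILy10 (0 without any 1 DMSO library), 23 to 33 in TMD8 and 0 to 3 in Toledo (3 without NEO2734 replicate 3). For OTX015 they were 0 to 2 in DOHH2 (2 without DMSO replicate 1), 0 to 1 in OCILy10, 6 to 23 in TMD8 (6 without OTX015 replicate 2) and 0 to 0 in Toledo. They were 36 to 39 for the DMSO differences between lines, 0 to 1 for different NEO2734 changes, and 0 to 0 for different OTX015 changes, NEO2734 against OTX015 and CB103. The average OTX015 change of IFIT3 ran from -1.63 without Toledo DMSO replicate 3 to 0.137 without Toledo DMSO replicate 1, the only direction to turn among the 11 named genes. The Toledo DMSO library left in the latter fit held 0 IFIT3 counts, so that this turn is not defined by the counts.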
